A study of Mus musculus with 32 samples.

Results

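The genes described here encode 9 proteins of the myelin that oligodendrocytes lay around axons of the central nervous system: Mbp, Mog, Mag, Mobp, Cnp, Cldn11, Opalin, Mal and Ermn. They were chosen by name, not by a measured value, and were read as 9 of the 42524 rows of a table of gene counts from mouse spinal cord. All 9 were matched to their row by symbol and all 9 passed the filter on low counts in every comparison. The lowest count of any of them in any mouse was 927, for Opalin, and the highest was 514863, for Mbp.

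Myelin is a stack of membrane that an oligodendrocyte wraps around an axon. Mbp holds the inner faces of the membrane together. Mog sits on the outermost layer and Mag on the innermost, where it touches the axon. Cldn11 forms the tight junctions between the layers, Cnp keeps channels of cytoplasm open, and Mobp, Mal, Opalin and Ermn are further components that appear as an oligodendrocyte matures. The transcription factors Olig2, Sox10 and Myrf drive this maturation.

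The spinal cords came from G93A mice, which carry a transgene for the human mutant SOD1 (B6-Tg(SOD1-G93A)1Gur/J on C57BL/6J) and develop a motor neuron disease that models amyotrophic lateral sclerosis, and from their WT littermates without it. Mice of each genotype were untreated or received OKN-007, a nitrone compound, in drinking water, and were taken at a time labelled 90 days (95 days of age in the study's methods) or at 155 days, which gave 8 groups of 4 mice each. The series design gives the 90 and 155 days as a period of treatment and the methods give ages, so the times are called ages here after the methods, and this was not settled from the data. The transgene is not restricted to one cell type, every mouse was sampled once, and the labels give neither the dose, the level of the cord nor a batch of extraction or sequencing. In bulk tissue, fewer oligodendrocytes and less RNA per oligodendrocyte cannot be told apart. The comparisons ask how the disease model, its progress and the compound bear on the RNA of these genes.

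Libraries held 19701722 to 30138257 counts, and 18675 to 19829 genes were tested. Levels are given in CPM, a gene's counts relative to the library total after TMM scaling, and a gene is called where the p-value of edgeR's quasi-likelihood test, adjusted by Benjamini-Hochberg over all genes tested, was under 0.05. Some libraries stood apart. The mean log2(CPM + 1) of 10 genes of Schwann cells, which make the myelin of peripheral nerves, was 5.42 in WT untreated mouse 3 and 3.92 in G93A untreated mouse 10 at 90 days, and 2.86 and 3.16 in WT OKN-007 mouse 6 and G93A OKN-007 mouse 14 at 155 days, against 1.83 to 2.46 in the other 28 mice. WT OKN-007 mouse 5 at 90 days was the highest of its group for all 9 central myelin genes. With these 5 libraries left out together, every count of the 9 genes called below was the same, except that 7 in place of 8 were called lower with age in WT mice.

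The DNA just before the start of a gene is shown for the 3 genes that were higher in G93A mice at 155 days and for Mog, which was lower there over both treatments. Each run is the 250 bases upstream of the RefSeq start (GRCm38.p6), 5′ to 3′ on the strand of the gene. Capitals mark matches on either strand to ACAAAG, the core that Sox factors bind, and to CTGGCAC or CTGGTAC, taken for Myrf.
Cldn11, chr3:31149670-31149919, plus strand: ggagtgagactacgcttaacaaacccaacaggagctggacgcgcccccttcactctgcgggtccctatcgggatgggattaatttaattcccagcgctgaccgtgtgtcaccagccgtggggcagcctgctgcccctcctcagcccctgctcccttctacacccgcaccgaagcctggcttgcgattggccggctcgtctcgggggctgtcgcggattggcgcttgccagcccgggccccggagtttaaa
Mag, chr7:30914923-30915172, minus strand: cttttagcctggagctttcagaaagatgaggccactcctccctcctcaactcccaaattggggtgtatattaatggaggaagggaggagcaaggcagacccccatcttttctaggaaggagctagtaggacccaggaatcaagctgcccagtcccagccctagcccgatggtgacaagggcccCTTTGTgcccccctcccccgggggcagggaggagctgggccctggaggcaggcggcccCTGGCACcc
Opalin, chr19:41077114-41077363, minus strand: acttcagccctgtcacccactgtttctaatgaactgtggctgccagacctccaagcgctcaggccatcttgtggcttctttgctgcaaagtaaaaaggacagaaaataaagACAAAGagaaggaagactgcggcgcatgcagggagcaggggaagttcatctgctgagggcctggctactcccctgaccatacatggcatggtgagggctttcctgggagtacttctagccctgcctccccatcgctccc
Mog, chr17:37023399-37023648, minus strand: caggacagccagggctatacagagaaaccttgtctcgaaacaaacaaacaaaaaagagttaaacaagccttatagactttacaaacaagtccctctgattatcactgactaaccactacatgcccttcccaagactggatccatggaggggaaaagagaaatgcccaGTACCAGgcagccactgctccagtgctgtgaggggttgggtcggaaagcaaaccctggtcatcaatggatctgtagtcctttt
Mag has 3 listed starts, of which the farthest upstream is shown. The Cldn11 run held neither motif, the Mag run held 1 of each, the Opalin run held 1 Sox motif and the Mog run held 1 Myrf motif. Of 32851 such runs over all genes, 16.5% held the Sox motif and 5.93% held a Myrf motif. These matches describe the letters of the windows shown and no binding. For 8 of the 9 genes a run was at hand, and 4 of these 8 held a Sox motif and 3 a Myrf motif. These counts are of genes with a match in any of their runs (10 runs for the 8 genes). The shares above are of runs, so they are not a like background for these counts.

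Together the 9 genes took 2.38% to 3.66% of the counts of a library at 90 days and 1.54% to 1.92% at 155 days. On the RPKM scale, which divides CPM by the exon length in kilobases, their levels in WT untreated mice at 90 days ran from 1979 ± 196 (SD, n = 4) for Mbp and 1013 ± 52.1 for Mobp to 21.3 ± 2.59 for Opalin. Between these lay Mal at 491 ± 48.7, Mag at 227 ± 11.5, Cnp at 216 ± 18.1, Cldn11 at 187 ± 13.7, Ermn at 176 ± 9.34 and Mog at 147 ± 7.90. Mag and Cnp differed by less than their spread, as did Cldn11 and Ermn. The plot of the 9 genes by mouse shows that most of them stepped down from 90 to 155 days and that Cldn11 stood lower in WT than in G93A mice at 155 days.

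**Figure D1:**
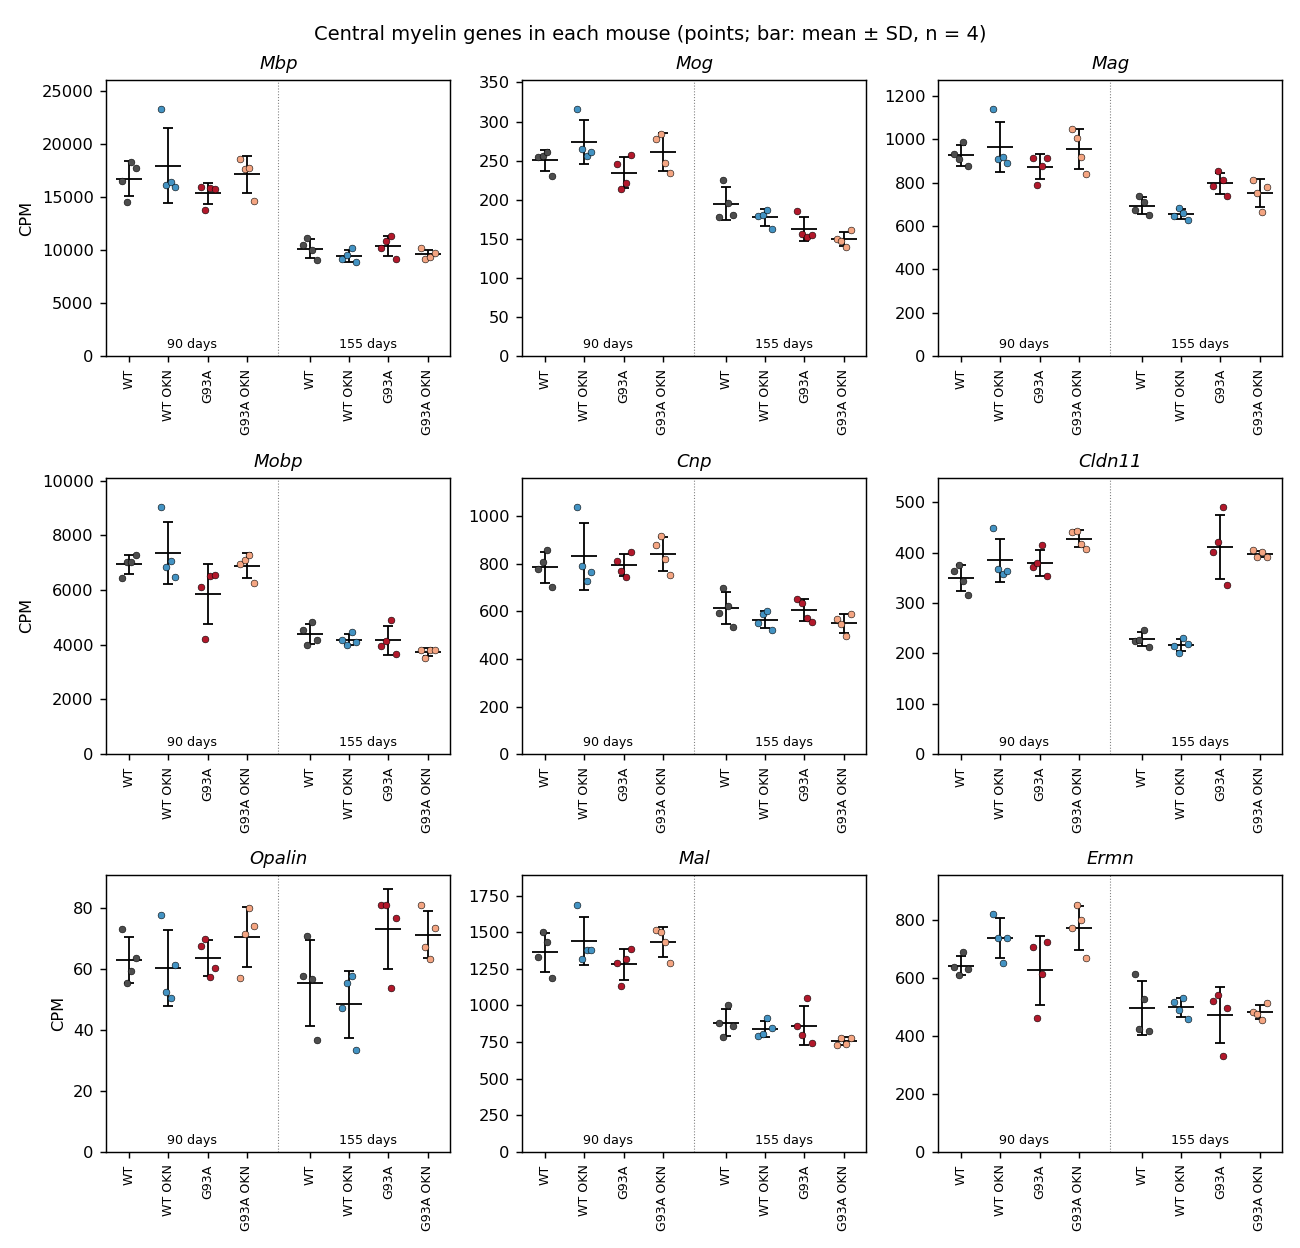
CPM of the 9 central myelin genes (vertical axes, from 0) in each of 32 mice, by genotype and treatment at 90 days and at 155 days; points are mice and bars are mean ± SD of 4. Cldn11 lay between 201 and 247 CPM in the 8 WT mice at 155 days and between 335 and 490 CPM in the 8 G93A mice.

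Cldn11 was the central myelin gene that differed most between genotypes at 155 days. The untreated WT mice stood at 224, 227, 247 and 213 CPM and the untreated G93A mice at 401, 421, 490 and 335 CPM. Every G93A mouse lay above every WT mouse. The level was 1.87-fold higher in G93A mice (log2 fold change 0.90 ± 0.09 SE, edgeR adjusted p = 1.6e-07). The mice on OKN-007, which are other animals, stood at 215, 201, 230 and 219 CPM in WT and at 405, 391, 401 and 392 CPM in G93A. Again the groups did not overlap, with a 1.94-fold difference (log2 0.95 ± 0.09 SE, edgeR adjusted p = 6.5e-08).

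Mag, the adhesion protein of the innermost layer, was also higher in G93A mice at 155 days, by less. Its levels were 673, 737, 713 and 649 CPM in untreated WT and 782, 854, 810 and 740.1 CPM in untreated G93A mice. The highest WT mouse stood just under the lowest G93A mouse, and the difference was 1.19-fold (log2 0.25 ± 0.07 SE, edgeR adjusted p = 0.0097). On OKN-007, WT mice had 645, 681, 659 and 628 CPM and G93A mice had 811, 750.3, 664 and 779 CPM, so that 1 G93A mouse lay within the WT range. The difference there was 1.21-fold (log2 0.28 ± 0.07 SE, edgeR adjusted p = 0.0043).

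Opalin, a membrane protein of the oligodendrocyte and the least abundant of the 9, was called higher in the OKN-007 mice and not in the untreated mice. In untreated mice it stood at 57.6, 70.8, 56.5 and 36.5 CPM in WT and at 80.7, 80.7, 53.5 and 76.6 CPM in G93A. The groups overlapped through G93A mouse 11, and the log2 fold change was 0.45 ± 0.18 SE (edgeR adjusted p = 0.061). The value turned on single mice and settings. It was 0.31 without WT mouse 4 (edgeR adjusted p = 0.17) and 0.14 with the level of caudal Hox genes as a covariate (edgeR adjusted p = 0.65). It was called without G93A mouse 11, without WT untreated mouse 2 or without WT OKN-007 mouse 8, without the filter on low counts, with the edgeR likelihood ratio test, with DESeq2 and with all 32 mice in the same fit. On OKN-007 the WT mice had 47.0, 55.3, 57.5 and 33.3 CPM and the G93A mice 80.8, 67.0, 63.2 and 73.2 CPM, without overlap, and the level was 1.55-fold higher in G93A (log2 0.63 ± 0.18 SE, edgeR adjusted p = 0.0094). The 2 differences were not shown to differ: the interaction of genotype and treatment was 0.19 on the log2 scale (95% interval -0.36 to 0.73).

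Mog, the outermost protein of the sheath, went the other way. It stood at 179, 225, 196 and 181 CPM in untreated WT and at 185, 156, 153 and 155 CPM in untreated G93A mice, of which mouse 9 lay within the WT range. Its log2 fold change was -0.22 ± 0.09 SE there (edgeR adjusted p = 0.066) and -0.17 ± 0.09 SE on OKN-007 (edgeR adjusted p = 0.13), where the WT mice had 179, 181, 187 and 162 CPM and the G93A mice 149.7, 148, 139 and 161 CPM. Neither comparison called it, and the untreated value turned on single mice and settings. It was -0.12 without WT mouse 2 (edgeR adjusted p = 0.29), and it was called without WT mouse 1 or G93A mouse 9, with RLE size factors, with DESeq2 and with all 32 mice in the same fit. The OKN-007 comparison called Mog when the fit held only its 2 groups (-0.19, edgeR adjusted p = 0.024). Over both treatments, 8 mice against 8, Mog was 0.87 times the WT level (log2 -0.20 ± 0.06 SE, edgeR adjusted p = 0.015), and it was not called with the Schwann cell score as a covariate (-0.18, edgeR adjusted p = 0.072).

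The other 5 genes, Mbp, Mobp, Cnp, Mal and Ermn, had log2 fold changes between -0.03 and 0.08 in untreated mice at 155 days and between -0.09 and 0.10 on OKN-007, and none was called. The 95% intervals of the untreated values were -0.09 to 0.25 for Mbp, -0.20 to 0.14 for Mobp, -0.16 to 0.21 for Cnp, -0.18 to 0.21 for Mal and -0.29 to 0.26 for Ermn. In all, 2 of 9 genes were called higher and 0 lower in untreated G93A mice (Cldn11 and Mag), where 21.3% of the 18675 genes tested were called higher and 18.2% lower. On OKN-007, 3 of 9 were called higher and 0 lower, against 23.3% and 18.2% of all genes. Over both treatments, 3 of 9 were called higher and 1 lower, against 28.8% and 25.8%. The shares of the 9 called higher lay near those of all genes, and their median log2 fold change in untreated mice was 0.03, against 0.00015 for all genes.

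**Figure D2:**
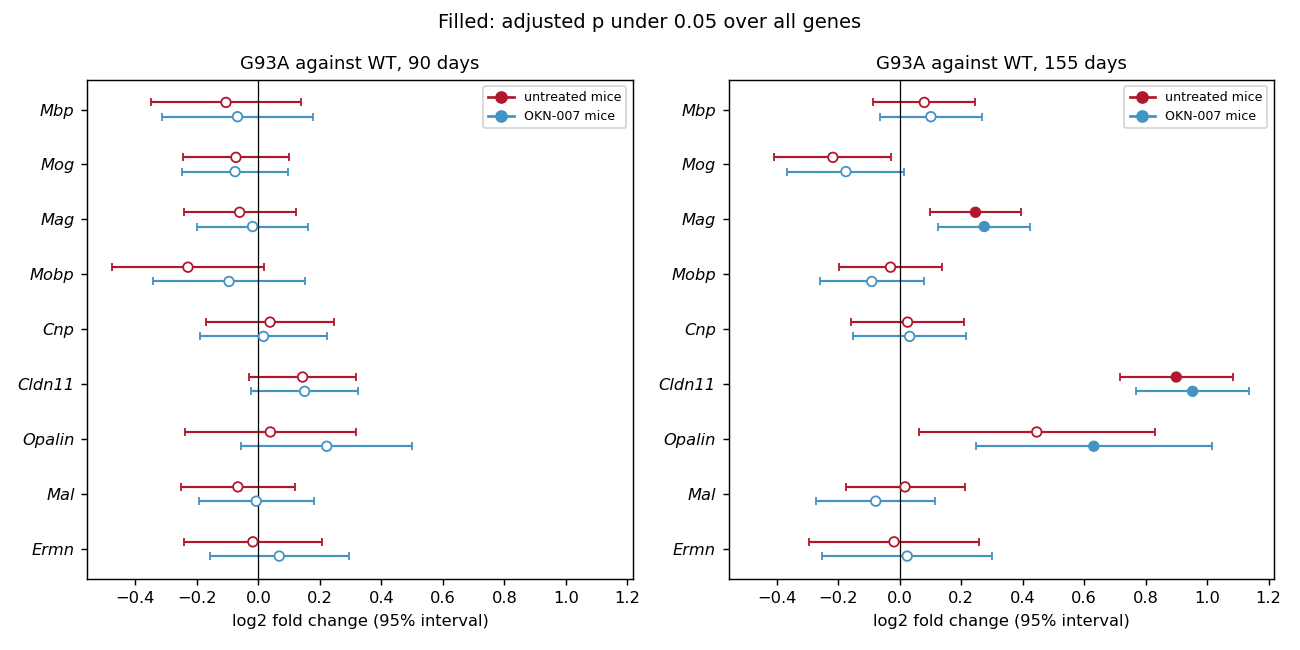
Log2 fold change of G93A against WT mice (horizontal axis) with 95% interval for each gene at 90 days (left) and 155 days (right), in untreated and OKN-007 mice, 4 against 4; filled points have an adjusted p under 0.05 over all genes tested. At 155 days Cldn11 stands at 0.90 and 0.95 and Mbp, Mobp, Cnp, Mal and Ermn lie within 0.10 of 0 on either side.

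The 155-day groups also differed in what the 25 mg of cord held. The 6 genes Hoxa10, Hoxc10, Hoxd10, Hoxa11, Hoxc11 and Hoxd11, which mark caudal levels of the cord, summed to 85.6 to 148 CPM in untreated WT mice and to 4.24 to 80.9 CPM in untreated G93A mice, and to 127 to 169 and 22.5 to 66.0 CPM on OKN-007. Of 6, 2 were called lower in untreated G93A mice and 5 on OKN-007, and all 6 had a negative log2 fold change. Among all genes tested, 18.2% were called lower in each of these comparisons. With the mean log2 level of these 6 genes as a covariate, chosen with this difference known, Cldn11 was still called in untreated mice (log2 0.86, edgeR adjusted p = 1.7e-05) and on OKN-007 (0.91, edgeR adjusted p = 1.3e-05). Mag was no longer called (0.15 and 0.17, edgeR adjusted p = 0.22 and 0.17), nor was Opalin on OKN-007 (0.31, edgeR adjusted p = 0.33). Over both treatments, Mog was still called under this covariate (-0.29, edgeR adjusted p = 0.030). The covariate itself followed genotype at 155 days. It ran from 2.95 to 4.16 in WT and from 0.56 to 2.99 in G93A untreated mice. On OKN-007 it ran from 3.87 to 4.16 and from 1.26 to 2.96. With so little overlap, these fits cannot tell the level of the cord apart from genotype, for calls lost or kept.

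The ratio of counts within a library does not depend on the scaling between libraries, and it set Cldn11 apart from Mog in each G93A mouse at 155 days. The ratio of Cldn11 to Mog was 1.26, 1.01, 1.26 and 1.18 in untreated WT mice and 2.16, 2.69, 3.20 and 2.16 in untreated G93A mice. On OKN-007 it ran from 1.11 to 1.35 in WT and from 2.44 to 2.88 in G93A mice. At 90 days it ran from 1.32 to 1.47 in the untreated WT mice and from 1.37 to 1.87 in the untreated G93A mice, which overlapped. On OKN-007 at 90 days it ran from 1.39 to 1.42 in WT and from 1.56 to 1.74 in G93A mice, without overlap. The ratio of Mag to Mog at 155 days ran from 3.27 to 3.77 in untreated WT and from 4.22 to 5.47 in untreated G93A mice. The ratio of Cldn11 to Opalin overlapped between genotypes at 155 days. It ran from 3.21 to 5.82 in WT and from 4.38 to 9.16 in G93A untreated mice. On OKN-007 it ran from 3.63 to 6.56 and from 5.01 to 6.34. The ratios of Cldn11 to Mbp, Mobp, Cnp, Mal, Ermn and Mag did not overlap between genotypes at that age. Such a ratio shows that 2 genes changed unequally and not which of them changed.

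**Figure D3:**
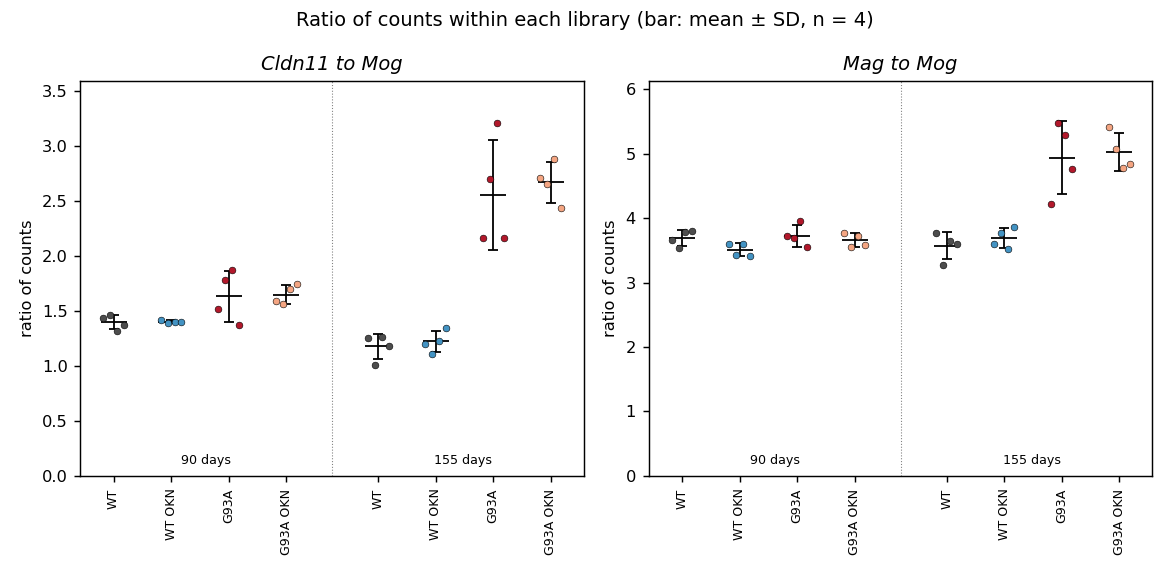
Ratio of the counts of Cldn11 to Mog (left) and of Mag to Mog (right) within each of 32 libraries (vertical axes, from 0), by genotype and treatment at 90 and 155 days; bars are mean ± SD of 4. Cldn11 to Mog lies between 1.01 and 1.35 in the 8 WT mice and between 2.16 and 3.20 in the 8 G93A mice at 155 days.

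At 90 days none of the 9 genes was called between genotypes, in untreated mice (0% of 18899 genes called either way), on OKN-007 (0%) or over both treatments (0.0265%, 5 genes). DESeq2 called none of the 9 either. Cldn11 had 364, 376, 344 and 317 CPM in untreated WT and 372, 380.2, 415 and 353 CPM in untreated G93A mice, which overlapped. Its log2 fold change was 0.14 (95% interval -0.03 to 0.32) there and 0.15 (-0.02 to 0.32) on OKN-007. Over both treatments it was 0.15, with an unadjusted p of 0.021 and an edgeR adjusted p of 0.63, and it was the 1 of 9 genes with an unadjusted p under 0.05, where 6.61% of all genes had one. The log2 fold changes of the other 8 genes in untreated mice ran from -0.23 for Mobp to 0.04 for Opalin. G93A untreated mouse 10, with the smallest library and a Schwann cell score of 3.92, was the lowest of its group for 6 of the 9 genes.

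Between 90 and 155 days the central myelin genes fell in WT mice. In untreated WT mice 8 of 9 were called lower and 0 higher, where 9.61% of the 19829 genes tested were called lower and 15.3% higher. Mbp fell by 0.71 ± 0.10 SE on the log2 scale (edgeR adjusted p = 8.9e-05), from 16490, 14540.1, 18294 and 17718 CPM to 10450.2, 11134, 9992 and 9033 CPM. The ages did not overlap. Mobp fell by 0.65, Mal by 0.62, Cldn11 by 0.61, Mag by 0.41, Ermn by 0.37 and Mog and Cnp by 0.35. Opalin had a value of -0.17 (95% interval -0.52 to 0.17) and was not called. The median of the 9 was -0.41, against -0.0051 for all genes. Of 30 other genes of myelin and mature oligodendrocytes 19 were called lower and 0 higher, with a median of -0.43, as were 5 and 0 of 12 transcription factors of the lineage, while of 16 genes of precursors and newly formed oligodendrocytes 6 were called lower and 2 higher. Ermn, with an edgeR adjusted p of 0.034, was no longer called without WT untreated mouse 1 or 3 of 90 days, without mouse 2 or 4 of 155 days or with the caudal Hox covariate, which left 7 of 9. The ages were different mice, and with no batch in the labels a batch that followed age cannot be told apart from age. The caudal Hox covariate also shifted, from 1.30 to 3.60 in untreated WT mice at 90 days to 2.95 to 4.16 at 155 days. Hoxa10 had means of 15.8 and 31.7 CPM at these ages and Hoxc10 28.5 and 50.7 CPM. Neither gene overlapped between the ages, and neither was called. The part of the level of the cord in these falls was not tested beyond that covariate.

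In untreated G93A mice 6 of 9 genes were called lower at 155 than at 90 days and 0 higher, where 12.8% of all genes were called lower and 21% higher. Mal fell by 0.55, Mbp by 0.54, Mog by 0.51, Mobp by 0.47, Ermn by 0.38 and Cnp by 0.37 on the log2 scale. Ermn was not called there without mouse 9 or 12 of 90 days or mouse 11 of 155 days, which left 5 of 9. Cldn11, Mag and Opalin were not called, with log2 values of 0.13 (95% interval -0.04 to 0.31), -0.11 (-0.27 to 0.05) and 0.22 (-0.12 to 0.56). Tested directly as the difference of the genotype effect between ages, 1 of 9 genes was called, where 12.9% of all genes were called higher and 8.34% lower. That gene was Cldn11, with a log2 difference of 0.74 ± 0.12 SE (edgeR adjusted p = 3.6e-05). The values behind it are the fall of 0.61 in untreated WT and the 0.13 in untreated G93A mice. With the caudal Hox covariate, which also shifted with age in WT mice, the difference for Cldn11 was 0.71 (edgeR adjusted p = 2.2e-04). The limit given for that covariate at 155 days holds here too. Mag had a difference of 0.29 ± 0.11 SE (edgeR adjusted p = 0.061), which passed the threshold on leaving out any of WT untreated mouse 4 or WT OKN-007 mouse 5 of 90 days, or WT untreated mouse 2 or G93A untreated mouse 12 of 155 days (adjusted p 0.034 to 0.038), and with DESeq2 (adjusted p 0.048). With the caudal Hox covariate the difference for Mag was smaller, at 0.18 (edgeR adjusted p = 0.24). Opalin had 0.39 (95% interval -0.10 to 0.88), and the other 6 genes lay between -0.16 and 0.18. Of the 16 genes of precursors and newly formed oligodendrocytes, 9 were called higher and 1 lower with age in G93A mice.

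**Figure D4:**
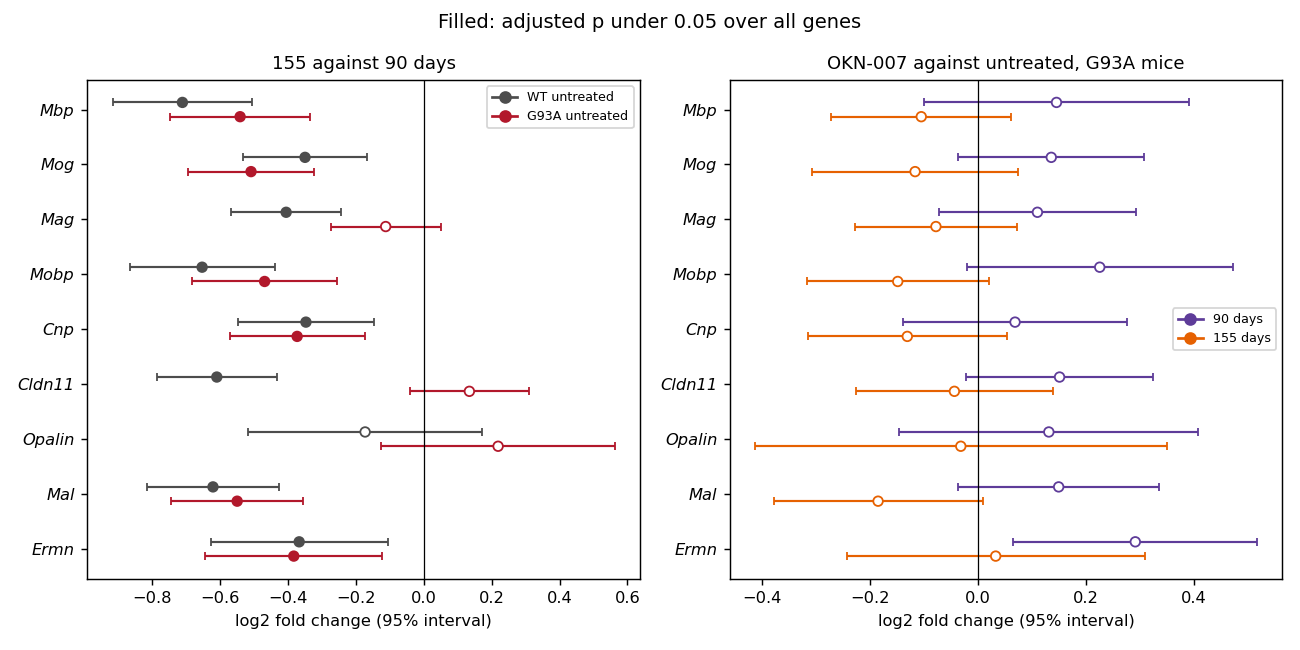
Left, log2 fold change of 155 against 90 days with 95% interval in untreated WT and untreated G93A mice; right, OKN-007 against untreated G93A mice at 90 and at 155 days; 4 mice a group, filled points have an adjusted p under 0.05 over all genes tested. Cldn11 stands at -0.61 in WT and 0.13 in G93A mice, and all points for OKN-007 are open.

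OKN-007 changed none of the 9 genes past the threshold in any of its comparisons. In G93A mice 0 of 9 genes were called at 90 days and 0 at 155 days, with 0% of all genes called at each age. In WT mice the counts were 0 and 0, also with 0% of all genes at each age, and the interaction of genotype and treatment called 0 of 9 and 0% at either age. DESeq2 called none of the 9 in these comparisons. At 90 days all 9 log2 fold changes in G93A mice were above 0, from 0.07 for Cnp to 0.29 for Ermn, with a median of 0.15 against -0.0037 for all genes. In WT mice of that age 8 of 9 were above 0, with a median of 0.09. A single mouse stood apart in each of these comparisons. The mean log2(CPM + 1) of the 9 genes was 10.18 in WT OKN-007 mouse 5. It was 9.82, 9.79 and 9.83 in WT OKN-007 mice 6, 7 and 8, against 9.76 to 9.88 in untreated WT mice. In G93A mice that mean was 9.82, 9.61, 9.77 and 9.84 untreated and 9.96, 10.02, 9.96 and 9.80 on OKN-007. In the untreated G93A group mouse 10, at 9.61, was the lowest for 6 of the 9 genes. On OKN-007 only mouse 16, at 9.80, lay within the untreated G93A range. How far mouse 10 moved these log2 fold changes was not tested. The caudal Hox covariate was 0.76, 0.66, 3.28 and 2.99 in G93A OKN-007 mice 13, 14, 15 and 16, against 2.11 to 3.17 in untreated G93A mice. Mice 13 and 14 were the highest of their group for 3 and 4 of the 9 genes, and mouse 15 for 2. The part of the level of the cord in these values was not tested. The members of 1 mouse move together, so the 9 signs are not 9 separate observations, and the comparisons of genotype and of treatment at an age share their mice.

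Ermn, a cytoskeletal protein of myelinating oligodendrocytes, had the largest of these values. It stood at 706, 462, 613 and 722 CPM in untreated and at 772, 850.4, 797 and 669 CPM in OKN-007 G93A mice at 90 days, which overlapped, with an unadjusted p of 0.014 and an edgeR adjusted p of 0.84. The lowest value, 462 CPM, was that of mouse 10. At 155 days 8 of 9 log2 fold changes in G93A mice were below 0, from -0.18 for Mal to -0.03 for Opalin, with Ermn at 0.03. In WT mice of 155 days all 9 were below 0, from -0.22 for Opalin to -0.01 for Ermn. The difference of the OKN-007 effect in G93A mice between the ages was below 0 for all 9 genes, from -0.38 for Mobp to -0.17 for Opalin, and 0 of 9 and 0% of all genes were called. Mobp and Mal had an unadjusted p of 0.015 and 0.017 there, and DESeq2 called 0 of 9.

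Other genes of the oligodendrocyte did not move as 1 group in untreated G93A mice at 155 days. Of 30 other genes of myelin and mature oligodendrocytes, 9 were called higher, 3 lower and 18 neither, with a median log2 fold change of 0.02. Among all genes tested, 21.3% were called higher and 18.2% lower. Klk6, a protease of oligodendrocytes, was higher by 1.86 ± 0.17 SE (edgeR adjusted p = 8.4e-08) and Apod, a lipid carrier, by 1.70 ± 0.30 SE (edgeR adjusted p = 2.0e-04). At the low end, Enpp2 fell by 0.45 ± 0.13 SE (edgeR adjusted p = 0.012), and Ugt8a, which makes the galactolipids of myelin, had -0.47 ± 0.19 SE (edgeR adjusted p = 0.0501). On OKN-007 the counts were again 9 higher and 3 lower of 30, against 23.3% and 18.2% of all genes.

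Precursors and newly formed oligodendrocytes are marked by genes such as Pdgfra, Cspg4 and Gpr17. Of 16 such genes, 12 were called higher and 0 lower in untreated G93A mice at 155 days, with a median log2 fold change of 0.44, and 12 and 0 on OKN-007. Among all genes tested, 21.3% were called higher and 18.2% lower in untreated mice, and 23.3% and 18.2% on OKN-007. Gpr17, a receptor of newly formed oligodendrocytes, stood at 50.1, 36.4, 50.3 and 53.6 CPM in untreated WT and at 88.0, 117, 82.6 and 82.2 CPM in untreated G93A mice, without overlap. It was higher by 1.002 ± 0.114 SE on the log2 scale (edgeR adjusted p = 1.2e-06) and Itpr2 by 0.97 ± 0.12 SE (edgeR adjusted p = 2.2e-06). Bcas1 had 0.04 and Tmem163 -0.12, and neither was called. In bulk tissue the cell type behind each rise was not tested, and most listed astrocyte genes and all listed microglial genes were also called higher in untreated mice. In the direct test of the genotype effect between ages, 8 of 16 were called higher and 0 lower. Among all genes, 12.9% were called higher and 8.34% lower in that test.

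Of 12 transcription factors of the oligodendrocyte lineage, 4 were called higher and 0 lower in untreated G93A mice at 155 days, and 5 and 0 on OKN-007. The shares of all genes called higher and lower were 21.3% and 18.2% in untreated mice, and 23.3% and 18.2% on OKN-007. Zfp488 was higher by 1.01 ± 0.17 SE (edgeR adjusted p = 1.3e-04) and Tcf7l2, an effector of Wnt signalling, by 0.76 ± 0.16 SE (edgeR adjusted p = 8.5e-04). Myrf, the factor that switches on myelin genes, was higher by 0.30 ± 0.08 SE (edgeR adjusted p = 0.0039). Sox10 had 0.26 ± 0.15 SE in untreated mice (edgeR adjusted p = 0.17) and was higher by 0.53 ± 0.15 SE on OKN-007 (edgeR adjusted p = 0.0070). Olig2 had -0.09, Olig1 -0.17 and St18 -0.22, and none of these was called.

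Genes of peripheral myelin were read as a check on nerve root in the sample. Of 10 Schwann cell genes, 5 were called higher and 0 lower in untreated G93A mice at 155 days, with a median of 0.38. The shares of all genes called higher and lower were 21.3% and 18.2%. Egr2, which Schwann cells and activated cells of other kinds express, was highest at 4.48 ± 0.39 SE (edgeR adjusted p = 4.3e-08), followed by Dhh at 1.35, which was not called. Ncmap had -0.06. The Schwann cell genes summed to 147 to 161 CPM in untreated WT and 177 to 211 CPM in untreated G93A mice of that age.

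Markers of other cell types moved with genotype at 155 days. In untreated mice 21.3% of all genes tested were called higher and 18.2% lower. All 9 microglial genes were higher, with a sum of 193 to 251 CPM in untreated WT and 938 to 1826 CPM in untreated G93A mice. Of 8 astrocyte genes 7 were higher, with 4278 to 4779 and 12707 to 16698 CPM, and all 9 neuronal genes were lower, with 10676 to 14042 and 5235 to 7612 CPM. Of 5 endothelial genes none was called with edgeR, and 2 had an unadjusted p under 0.05. Of 7 genes taken as markers of mature oligodendrocytes, some of which are also among the 30 other myelin genes, 1 was called higher and 2 lower. Of 6 liver genes, read as a check on foreign tissue, 5 were tested and none was called, with 1 at an unadjusted p under 0.05, and they summed to 1.06 to 19.7 CPM in untreated WT and up to 186 CPM in untreated G93A mice. The part of these shifts in the values of the 9 genes was not tested.

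**Figure D5:**
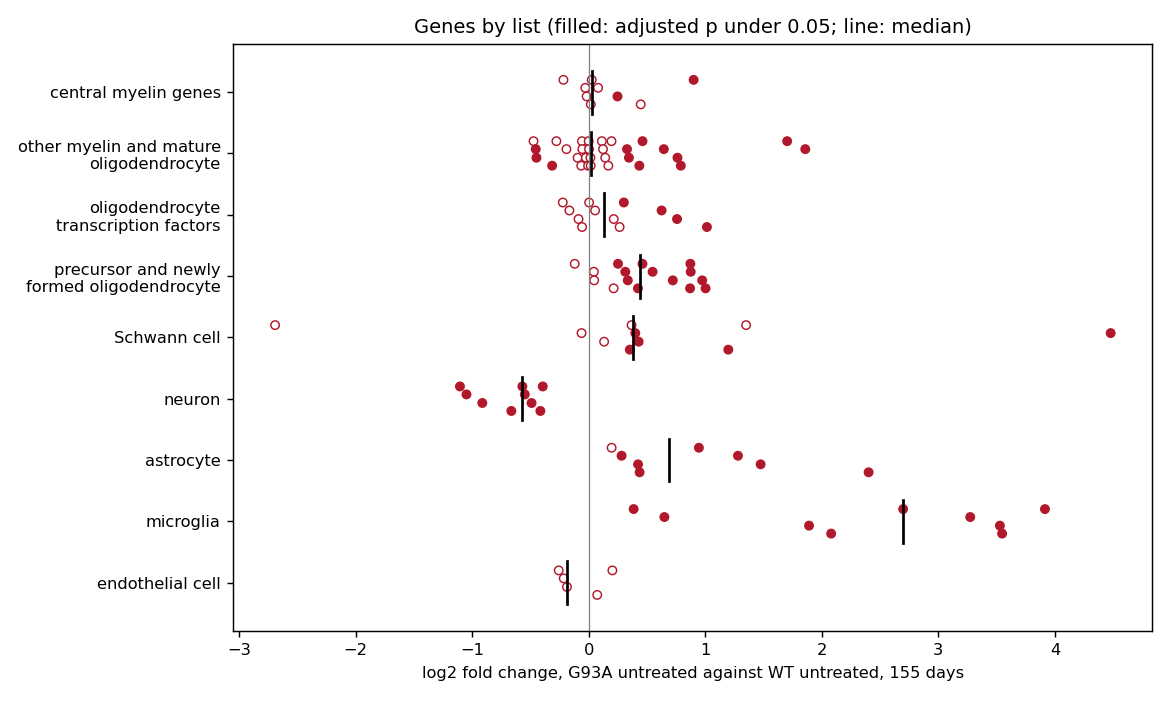
Log2 fold change of untreated G93A against untreated WT mice at 155 days (horizontal axis) for each gene of 9 lists (rows); filled points have an adjusted p under 0.05 over all genes tested and the black line is the median of the list. The medians are 0.03 for the central myelin genes, 0.44 for precursor and newly formed oligodendrocyte genes, -0.57 for neuronal and 2.70 for microglial genes.

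Across the 32 mice most of the 9 genes rose and fell together. The Pearson correlation of log2 levels over the 36 pairs of genes had a median of 0.79, from 0.03 for Mobp with Opalin to 0.96 for Mobp with Mal, and with the group means taken out the median was 0.43. The mice share library depth, age and the piece of cord taken, so these values are a description. Within groups, the mean log2 level of the 9 genes had a correlation of 0.76 with that of the 7 mature oligodendrocyte markers, of -0.49 with the caudal Hox genes and of -0.03 with the Schwann cell genes. The genes most like the mean of the 9 over the 32 mice, among 10474 genes of at least 10 CPM, were Golga7 (r = 0.97), Slc48a1 (0.97), Ttyh2 (0.97), S100b (0.96) and Plekhb1 (0.96).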

How the data were processed

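Spinal cord RNA of 32 mice was sequenced from stranded mRNA libraries. The authors deposited raw read counts per gene, which are not normalized. The study's methods name STAR, HTSeq, GRCm38 and GENCODE M10, while the submitters' processing notes name FastQC, STAR, featureCounts, edgeR, GRCm39 and hg38, and 1321 of 42524 gene identifiers are not in GENCODE M21, so no gene coordinates of the table are given. Symbols were matched for 41203 identifiers (96.9%). Low counts were removed with filterByExpr, libraries were scaled by TMM, and edgeR 4.0.16 (R 4.3.3) fitted the quasi-likelihood test to the 16 mice of an age, or to all 32 for comparisons between ages, with Benjamini-Hochberg adjustment. DESeq2 1.42.0 was an alternative. The fit was tested on simulated data. RPKM used GENCODE M21 exon lengths. Group scores were means of log2(CPM + 1). All 9 genes are named, with the 2 highest and 2 lowest members of each further list in untreated mice at 155 days and Myrf, Sox10 and Olig2; Pdgfra and Cspg4 are named as examples of their list. The genes, lists and tests were chosen with earlier results of these data known. The mice are separate animals, and no 2 libraries of the same group were alike within sampling noise (pairs between groups were not compared). Some genes that this rule names are not reported here.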

Additional observations from a re-analysis of the deposited data

Results flagged for a closer look

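Among the 72 sets of 4 mice (9 genes in 8 groups), 9 held a highest or lowest mouse set off from its group by more than the 95% critical value of Dixon's test, which chance gives in about 1 set in 20. WT OKN-007 mouse 5 at 90 days accounted for 5 of them, as the highest of its group for Mbp (23293 CPM, next 16454), Mog (316 CPM, next 265), Mag (1137 CPM, next 919), Cldn11 (448 CPM, next 367) and Mal (1687 CPM, next 1378). At 90 days G93A untreated mouse 10 was the lowest of its group for Mbp (13824 CPM, next 15804). At 155 days G93A untreated mouse 9 was the highest for Mog (185 CPM, next 156), G93A untreated mouse 11 was the lowest for Opalin (53.5 CPM, next 76.6), and G93A OKN-007 mouse 14 was the lowest for Mobp (3504 CPM, next 3789).

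The change of Cldn11 between genotypes differed between the ages in untreated mice, by 0.74 on the log2 scale (edgeR adjusted p = 3.6e-05), the only 1 of 36 tests of such differences over the 9 genes that was called.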

How the results depend on the processing

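The called counts that moved by over 1.5 times are given here. Untreated G93A against WT mice at 155 days gave 4 genes in place of 2 with DESeq2, with all 32 mice in the same fit, with the threshold raised to 0.10 and with p left unadjusted, and 1 with the caudal Hox covariate. That covariate left 1 of 3 on OKN-007 and 2 of 4 over both treatments. The difference between ages gave 2 genes in place of 1 with DESeq2, with the threshold raised to 0.10 and with p left unadjusted, and 1 to 2 on leaving out single mice. At an unadjusted p under 0.05, 1 gene in place of 0 passed over both treatments at 90 days (Cldn11) and for OKN-007 in G93A mice at 90 days (Ermn), and 2 in place of 0 for the OKN-007 effect between ages. The untreated count at 155 days was 3 with RLE size factors (Mog gained), without the filter and with the edgeR likelihood ratio test (Opalin gained), and 2 to 3 on leaving out single mice. Of 540 recomputed counts 523 stayed within 1.5 times, and of 1710 recomputed log2 fold changes 1604 kept their direction and their side of the threshold.

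The sign changes were all in values that were not called. For Ermn over both treatments at 155 days they gave -0.016 with RLE size factors and with DESeq2, -0.011 with library size only, -0.00056 without the filter, -0.0043 with at least 10 counts in every mouse, -0.26 with the caudal Hox covariate, -0.022 with all 32 mice and -0.0094 in the 27 mice left without the libraries that stood apart, an alternative added after seeing the data. On OKN-007 at 155 days Ermn had -0.25, -0.011 and -0.0043 in the last 3 of these, and in untreated mice 0.041 with the Schwann cell covariate. The caudal Hox covariate gave Cnp -0.1236 in untreated mice, -0.1232 on OKN-007 and -0.1234 over both, and Mbp -0.0042 in untreated mice. All 32 mice gave Cnp -0.0032 on OKN-007. At 90 days on OKN-007 Mal had 0.0088 with library size only and 0.0070 without the filter. The 27 mice gave at 90 days 0.0021 for Mag, -0.052 for Opalin and 0.13 for Ermn in untreated mice, 0.082 for Mbp, 0.070 for Mag, 0.018 for Mobp and 0.077 for Mal on OKN-007, and 0.026 for Mbp, 0.036 for Mag and 0.037 for Mal over both. The cause of these changes was not tested.

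Leaving out single mice turned the sign within these ranges. In untreated mice at 90 days they were -0.0095 to 0.081 for Cnp, -0.026 to 0.12 for Opalin and -0.082 to 0.090 for Ermn. On OKN-007 at 90 days they were -0.13 to 0.082 for Mbp, -0.067 to 0.070 for Mag, -0.15 to 0.019 for Mobp, -0.039 to 0.14 for Cnp and -0.064 to 0.078 for Mal. Over both treatments at 90 days they were -0.065 to 0.0039 for Mag, -0.0014 to 0.089 for Cnp, -0.065 to 0.0046 for Mal and -0.0064 to 0.079 for Ermn. In untreated mice at 155 days they were -0.11 to 0.026 for Mobp, -0.016 to 0.12 for Cnp, -0.084 to 0.082 for Mal and -0.074 to 0.12 for Ermn. On OKN-007 at 155 days they were -0.0086 to 0.066 for Cnp and -0.018 to 0.056 for Ermn, and over both -0.080 to 0.0023 for Mal and -0.030 to 0.074 for Ermn.

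The mouse numbers recur at both ages on different mice. Over 16 same-numbered pairs the correlation of deviations ran from -0.21 to 0.13, with 2 over 0.1 and 2 of 16 highest for their own number, so the numbers do not pair the mice. With the number as a replicate block, 8 genes were called with age in WT, 6 in G93A, 1 for the difference and 0 for the OKN-007 effect between ages, the same counts as without it. With 4 mice a group, the 95% intervals of log2 fold changes at 155 days in untreated mice ran from 0.10 to 0.40 for Mag and from 0.06 to 0.83 for Opalin, the least abundant of the 9.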
